A study of Danio rerio with 10 samples.

Results

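The genes described here are 10 genes of the oligodendrocyte lineage and of myelin: *mbpa*, *mbpb*, *mpz*, *plp1a*, *plp1b*, *cldnk*, *mag*, *olig1*, *olig2* and *sox10*. They were picked by name, with earlier results of these data known, from the 32266 genes of a count table of the zebrafish brain. A total of 9 were found by symbol, and *plp1a* was found through its RefSeq synonym. All 10 passed the filter on low counts in every comparison.

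Oligodendrocytes are the glial cells that wrap axons of the central nervous system in myelin, a stack of lipid-rich membrane that speeds conduction. Myelin basic protein holds the inner faces of this membrane together, and proteolipid protein and, in fish, myelin protein zero hold the outer faces together. The lineage is specified by the transcription factor *olig2*, and precursor cells already carry *olig2* and *sox10* before the myelin genes are switched on.

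All libraries were made from brains of 6-month-old fish of the Tübingen strain, with 2 brains pooled in each. A total of 2 libraries came from wild type (WT) fish, and 8 from fish homozygous for a mutation of *ppp2r2c* (genotype label *ppp2r2c* m/m, title a4 mutant, named m1/m1 in the study's text), the gene of a brain regulatory subunit of protein phosphatase 2A (PP2A). Of the mutant libraries, 2 had no drug (vehicle), 3 were fed methylphenidate (MPH, Ritalin) at 1.08 mg/kg and 3 valproate at 300 mg/kg, each in soaked food for 3 days. The mutant is a single frameshift line, no WT fish received a drug, and both drugs are compared with the same 2 vehicle libraries. The comparisons ask how the lineage differs with the genotype and with each drug. Counts per library ranged from 19224942 to 25851076. Correlations between libraries, over genes above a floor on the mean level, ranged from 0.95 to 0.98. The transcript of the mutated gene itself was at 46.3 and 46.7 CPM (counts scaled to a common library size) in mutant vehicle libraries and at 50.3 and 54.6 in WT, a log2 fold change of -0.17 (95% interval -0.46 to 0.13) that did not pass the test. With 2 or 3 libraries a group, the p values set each difference against the spread between these pools only. The fit shares information on this spread across genes.

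CPM values here follow TMM scaling, a factor per library that evens out differences in composition. They are not divided by gene length, so levels were compared between libraries and not between genes. The 10 genes together took between 0.674% and 1.45% of all counts in a library, and *mbpa* alone took between 0.478% and 1.11%. The lowest count of any of them in any library was 235, for *olig1*. For genes with few counts, such as *plp1a* (293, 312 and 335 with MPH), counting error can be as large as the spread within a group.

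Myelin basic protein is encoded by a pair of fish genes. *mbpa* was at 10832 and 5761 CPM in WT, 8356 and 6695 in mutant vehicle, 7007, 6753 and 5262 with MPH and 7736, 4532 and 5238 with valproate. Its WT libraries lay the furthest apart, and all 4 groups overlapped. *mbpb* was at 110 and 90.5 CPM in WT, 173 and 128 in mutant vehicle, 118, 112 and 114 with MPH and 121, 71.2 and 99.2 with valproate. Mutant vehicle was the highest group for *mbpb* and lay apart from each of the others, while valproate spanned the WT level.

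*mpz*, which in fish is a main protein of central as well as peripheral myelin, was at 1457 and 1551 CPM in WT and at 2270 and 1660 in mutant vehicle. With MPH it was at 1055, 1126 and 1144 CPM, and with valproate at 1241, 773 and 1020. Every drug library was below every library without a drug, and mutant vehicle was above WT.

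*plp1b*, a gene of the proteolipid protein family, had the same order of groups. It was at 1296 and 1052 CPM in WT, 1980 and 1427 in mutant vehicle, 1015, 964 and 880 with MPH and 1034, 659 and 801 with valproate. The lowest WT library and the highest valproate library were close, and again no drug library reached the libraries without a drug. Its paralogue *plp1a* was at 27.6 and 21.2 CPM in WT, 24.0 and 21.7 in mutant vehicle, 12.9, 13.8 and 14.3 with MPH and 17.7, 16.1 and 16.8 with valproate. For *plp1a* WT and mutant vehicle overlapped, MPH was the lowest group, and valproate lay between MPH and vehicle with no overlap with either.

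*cldnk* encodes a claudin of fish myelin, a family that seals neighbouring membranes. It was at 141 and 132 CPM in WT, 172 and 124 in mutant vehicle, 145, 115 and 85.2 with MPH and 119, 68.0 and 80.9 with valproate. Valproate lay below WT and vehicle, and MPH overlapped every other group. *mag*, the myelin-associated glycoprotein that faces the axon, was at 190 and 196 CPM in WT, 221 and 200 in mutant vehicle, 168, 168 and 129 with MPH and 159, 147 and 172 with valproate. All 6 drug libraries were below the libraries without a drug for *mag*, and MPH and valproate overlapped.

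The transcription factor *olig2*, which specifies the lineage, was at 91.0 and 89.1 CPM in WT, 81.7 and 92.1 in mutant vehicle, 97.3, 69.5 and 71.6 with MPH and 56.1, 58.0 and 85.3 with valproate, so that each group overlapped its neighbour in order of mean. Its paralogue *olig1*, which acts later in the lineage in mice, was at 21.1 and 19.5 CPM in WT, 20.6 and 17.3 in mutant vehicle, 11.3, 15.1 and 17.1 with MPH and 19.3, 11.6 and 17.8 with valproate. The highest MPH library was only just below the lowest vehicle library. *sox10*, needed for the expression of myelin genes and also carried by Schwann cells, was at 51.8 and 55.3 CPM in WT, 54.2 and 51.9 in mutant vehicle, 56.8, 47.7 and 38.2 with MPH and 42.7, 49.1 and 51.8 with valproate. Its WT and vehicle libraries differed by a few CPM, and MPH spanned them.

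**Figure D1:**
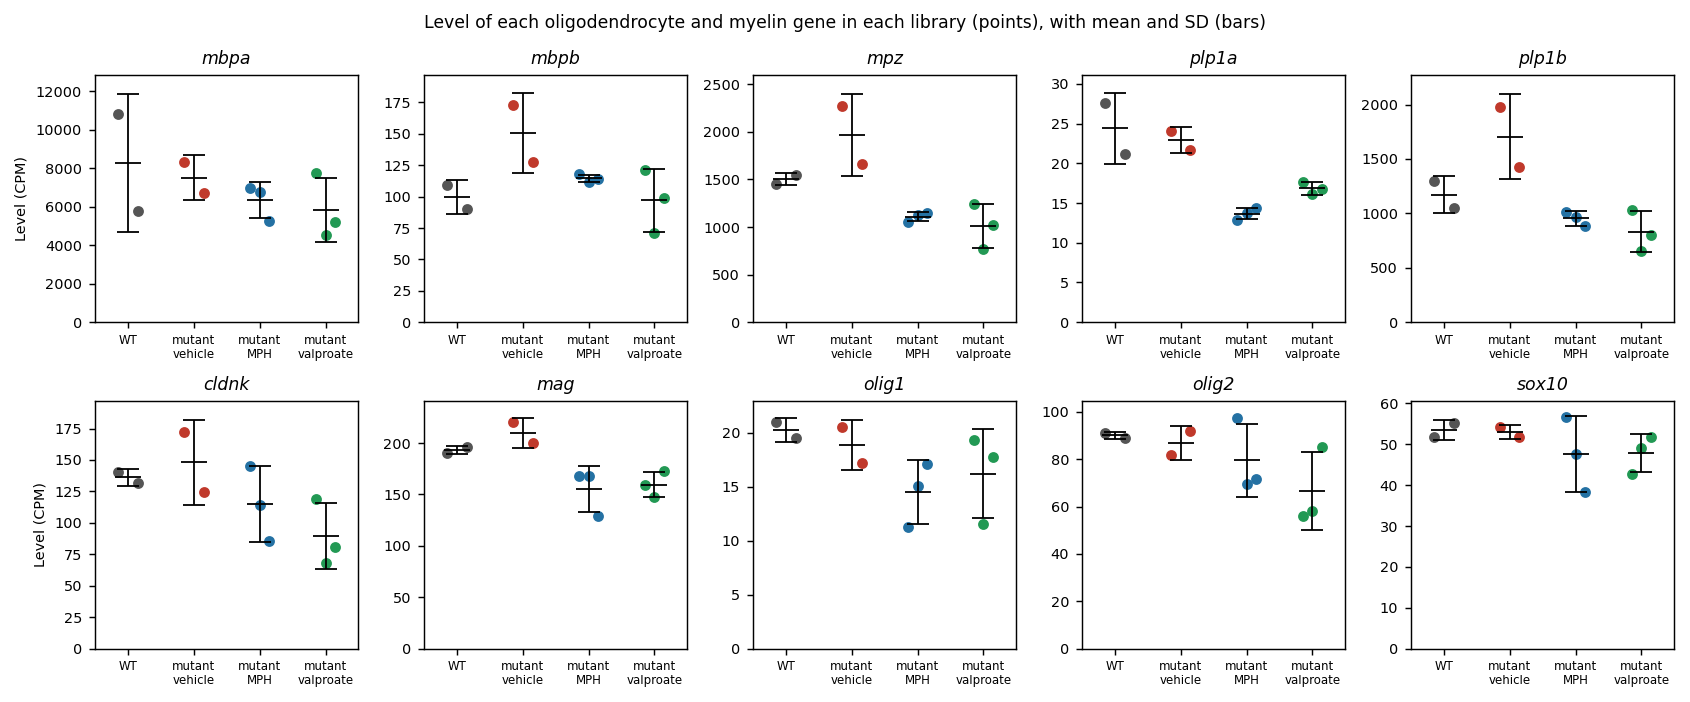
Level of each of the 10 genes in CPM (vertical axes, each from 0) in the 10 libraries, by group. Points are libraries, and bars are the group mean and SD (n = 2 for WT and mutant vehicle, 3 for MPH and valproate). For *mpz*, *plp1a*, *plp1b* and *mag* all 6 drug libraries lie below all 4 libraries without a drug.

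In the comparison of genotypes, mutant vehicle libraries had higher levels of some myelin genes, with transcription factors fitted close to 0 difference, and none of the 10 genes passed the test (edgeR's quasi-likelihood test, adjusted p over all genes under 0.05, which 0.193% of 19695 genes passed). *mbpb* was 1.51-fold higher (log2 fold change 0.59, SE 0.18, 95% interval 0.17 to 1.02, adjusted p = 0.346). *plp1b* was 1.46-fold higher (0.54, SE 0.20, interval 0.09 to 1.00, adjusted p = 0.415), and *mpz* 1.31-fold (0.39, SE 0.18, interval -0.02 to 0.81, adjusted p = 0.520). In whole-brain RNA, a different number of oligodendrocytes and a different amount of RNA in each cannot be told apart. The fitted log2 fold changes of *mag* and *cldnk* were both 0.13, those of *mbpa* and *plp1a* were -0.14 and -0.09, and those of *olig1*, *olig2* and *sox10* were -0.10, -0.05 and -0.01. The interval for *sox10* was -0.30 to 0.29 and that for *olig2* -0.35 to 0.25, so a change of the size fitted for *mbpb* lay outside both.

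Of the 10 genes, 5 were above 0 (49.2% of all genes) and 5 below 0 for the genotypes, with a median of 0.06 beside -0.01 for all genes. For *mbpb*, *mpz*, *plp1b* and *mag* both mutant libraries were above both WT libraries, which held for 20.9% of all genes tested. The signs of *mbpa*, *plp1a*, *cldnk*, *olig1*, *olig2* and *sox10* each turned when 1 of the 4 libraries was left out. Those of *mbpb*, *plp1b*, *mpz* and *mag* stayed above 0, but their sizes depended on single libraries. Without mutant vehicle replicate 1 their log2 fold changes were 0.35, 0.28, 0.14 and 0.05. Without mutant vehicle replicate 2 they were 0.80, 0.77, 0.61 and 0.21.

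With MPH all 10 genes had a fitted level below mutant vehicle, *plp1b*, *mpz* and *plp1a* the furthest, and none passed the test (0.216% of 19907 genes passed). *plp1b* had a log2 fold change of -0.84 (SE 0.20, 95% interval -1.30 to -0.37, adjusted p = 0.187 by edgeR), a fold of 0.560. *mpz* was at -0.82 (SE 0.20, interval -1.28 to -0.37, adjusted p = 0.188) and *plp1a* at -0.74 (SE 0.20, interval -1.20 to -0.28, adjusted p = 0.229). *mag* was at -0.44 (interval -0.85 to -0.03, adjusted p = 0.398), the last of the 4 genes whose interval did not reach 0.

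The remaining myelin genes were nearer to 0 with MPH, *mbpb* at -0.39, *cldnk* at -0.36 and *mbpa* at -0.25. Among the transcription factors *olig1* was at -0.38, *sox10* at -0.16 and *olig2* at -0.13, with intervals of -0.95 to 0.19, -0.60 to 0.29 and -0.56 to 0.31. The median of the 10 genes was -0.38, against 0.01 over all genes, of which 49.2% were below 0. All 3 MPH libraries lay below both vehicle libraries for 6 of the 10 genes (*mbpb*, *mpz*, *plp1a*, *plp1b*, *mag* and *olig1*), a separation found for 16.0% of all genes. DESeq2's Wald test called *mpz* (adjusted p = 0.00608) and *plp1b* (adjusted p = 0.00738) lower, and it called 2.95% of all genes.

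With valproate all 10 genes were again fitted below vehicle, *plp1b* and *mpz* the furthest, and none passed the test (0.131% of 19850 genes passed). *plp1b* was at -1.05 (SE 0.23, 95% interval -1.57 to -0.52, adjusted p = 0.0980 by edgeR), a fold of 0.484. *mpz* was at -0.97 (SE 0.23, interval -1.50 to -0.44, adjusted p = 0.115), a fold of 0.511. *cldnk* at -0.74 (SE 0.25, adjusted p = 0.202) and *mbpb* at -0.64 (SE 0.23, adjusted p = 0.232) came next in size.

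*plp1a* was at -0.45 (SE 0.14, adjusted p = 0.177) and *mag* at -0.41 (SE 0.12, adjusted p = 0.169) with valproate, and both had narrower errors than the larger differences. *mbpa* was at -0.38 with an interval of -0.97 to 0.21. *olig2* was at -0.40, *olig1* at -0.23 and *sox10* at -0.16, with intervals of -0.84 to 0.05, -0.78 to 0.31 and -0.45 to 0.13.

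The median with valproate was -0.43 for the 10 genes and 0.00 for all genes, of which 49.6% were below 0. For 7 of the 10 genes (*mbpb*, *mpz*, *plp1a*, *plp1b*, *cldnk*, *mag* and *sox10*) all valproate libraries were below both vehicle libraries, as for 17.3% of all genes, although for *sox10* the nearest libraries stood at 51.8 and 51.9 CPM. DESeq2's Wald test called *plp1b* (adjusted p = 0.000367) and *mpz* (adjusted p = 0.00135) lower and called 5.65% of all genes. Valproate replicate 2 had the lowest level in its group of all 7 myelin genes, and replicate 1 the highest of 6. Without replicate 1, edgeR called *plp1b* (adjusted p = 0.0220), *cldnk* (0.0295) and *mpz* (0.0307), in a fit that called 3.65% of all genes.

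**Figure D2:**
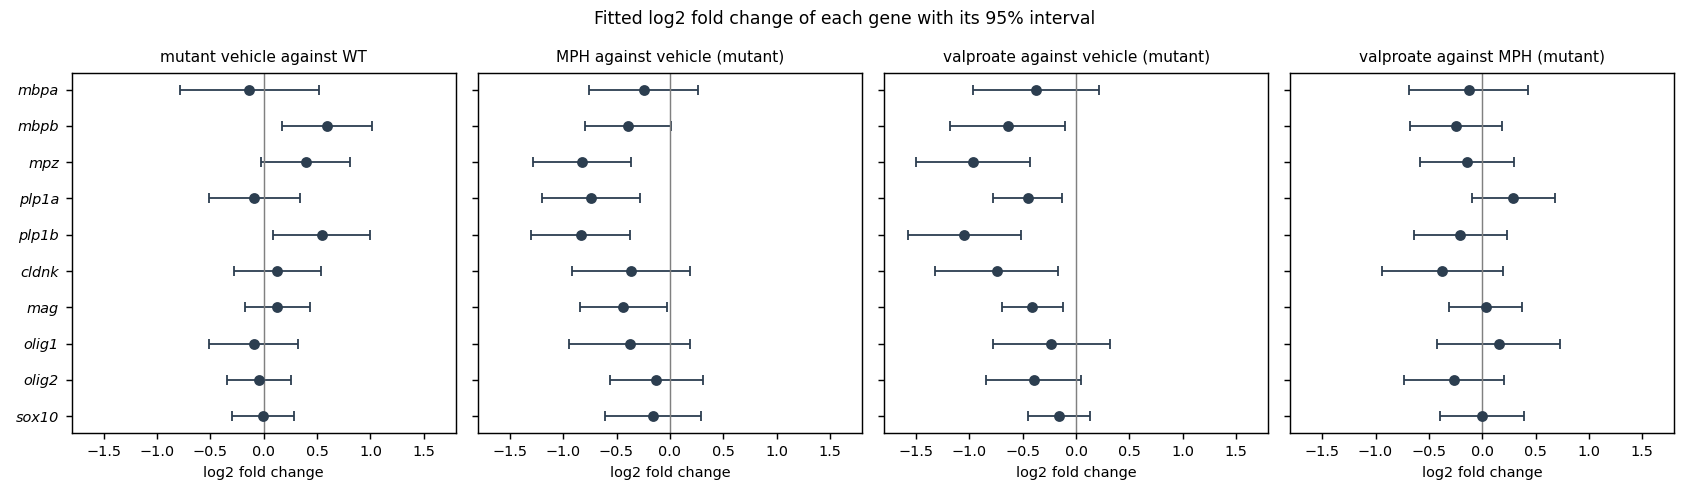
Fitted log2 fold change (horizontal axes) of each gene in the 4 comparisons. Points are edgeR estimates and bars their 95% intervals. In both drug comparisons with vehicle all 10 points are below 0, with *plp1b* at -0.84 for MPH and -1.05 for valproate, and no gene passed the adjusted threshold in any panel.

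Mutant vehicle replicate 1 had the highest level of 5 of the 7 myelin genes among all libraries, and it enters both drug comparisons. Without it the median of the 10 genes was -0.23 for MPH and -0.39 for valproate, and without vehicle replicate 2 it was -0.55 and -0.53. All 10 genes stayed below 0 in each of these fits. As an alternative chosen after seeing these levels, each drug group was also set against the 2 WT libraries, where drug and genotype cannot be told apart. Against WT, 9 of 10 genes with MPH (median -0.32) and 10 of 10 with valproate (median -0.47) were below 0, and none passed the test, which 0.194% and 0.115% of all genes passed. The exception was *mbpb*, at 0.19 with MPH. Against WT, *plp1b* was at -0.31 with MPH and -0.50 with valproate, and *plp1a* was at -0.84 and -0.53.

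The 4 genes with every drug library below every library without a drug were *mpz*, *plp1a*, *plp1b* and *mag*. Over all genes, 3.66% had this order and 4.48% the opposite order. The grouping was chosen after the levels were seen, so no test is given.

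The drugs, given at different doses, did not differ from each other in any of the 10 genes by the test, nor did any gene of the 19387 tested pass it (0% called, with 787 genes at an unadjusted p under 0.05, and 41, or 0.19%, called by DESeq2's Wald test). Of the 10 genes, 6 were lower (50.3% of all genes) and 4 higher with valproate, and none had an unadjusted p under 0.05 (4.06% of all genes). *plp1a* was 0.29 higher on the log2 scale with valproate (95% interval -0.09 to 0.68), and it was the only gene of the 10 whose groups did not overlap, a separation in this direction found for 4.77% of all genes. *cldnk* was at -0.38 (interval -0.94 to 0.19), *olig2* at -0.27 (-0.74 to 0.20), *mbpb* at -0.24 (-0.68 to 0.19) and *plp1b* at -0.21 (-0.64 to 0.23). The intervals allow differences between the drugs of more than 1.5-fold in several of these genes.

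**Figure D3:**
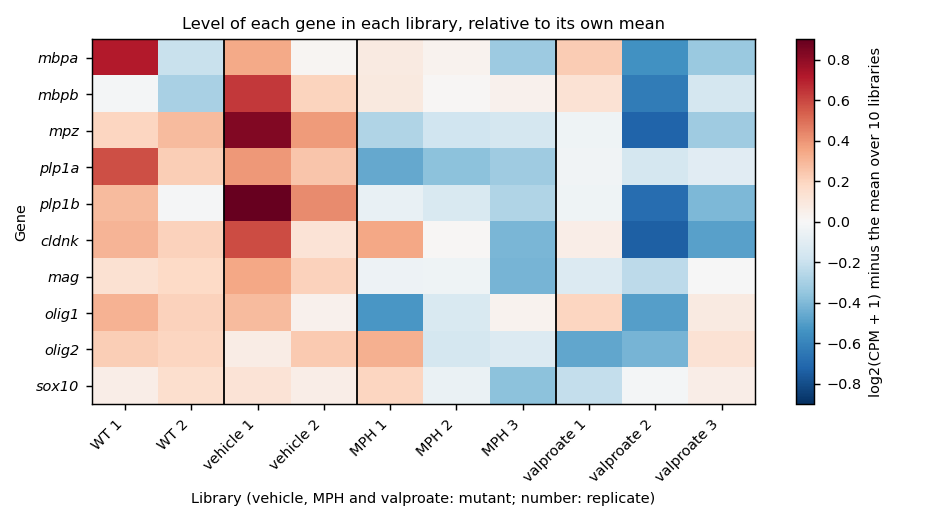
Level of each gene (rows) in each library (columns), as log2(CPM + 1) minus the gene's mean over the 10 libraries. Red is above and blue below the mean. Mutant vehicle replicate 1 is red in all 10 rows, and valproate replicate 2 is blue in all rows but *sox10*, where it is near 0.

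Ratios of counts within a library do not depend on its depth or scaling. The ratio of *plp1b* to *mbpa* was 0.237 and 0.213 in mutant vehicle and 0.120 and 0.183 in WT. It was 0.145, 0.143 and 0.167 with MPH and 0.134, 0.145 and 0.153 with valproate. Mutant vehicle was thus above every other library, and the drug groups overlapped WT. For *mpz* to *mbpa* the mutant vehicle ratios of 0.272 and 0.248 were above all drug libraries (0.151 to 0.217), and the WT libraries lay far apart, at 0.135 and 0.269.

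The paralogues did not keep a fixed ratio. The *plp1b* to *plp1a* ratio was 47.0 and 49.5 in WT, 82.4 and 65.7 in mutant vehicle, 78.7, 70.1 and 61.5 with MPH and 58.5, 41.0 and 47.8 with valproate. Valproate lay around the WT ratios, and MPH overlapped vehicle. The *mbpa* to *mbpb* ratio was 98.8 in WT replicate 1 and between 46.2 and 63.8 in the other libraries, so 1 library set its range. The ratio of *mpz* to *plp1b* stayed between 1.04 and 1.47. How stretches shared by paralogues affect these counts was not tested.

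**Figure D4:**
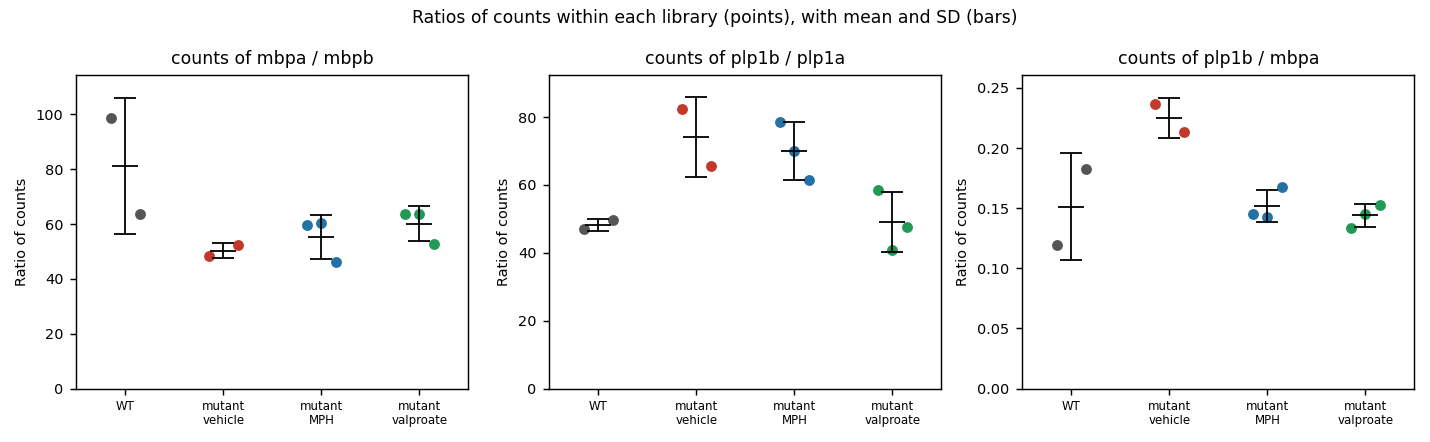
Ratios of counts within each library for *mbpa* to *mbpb*, *plp1b* to *plp1a* and *plp1b* to *mbpa* (vertical axes, each from 0). Points are libraries, and bars are the group mean and SD (n = 2 or 3). The *plp1b* to *mbpa* ratio is 0.213 and 0.237 in mutant vehicle and at most 0.183 elsewhere.

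The myelin genes varied together from library to library. Over the 21 pairs of the 7 myelin genes, Pearson's r of log2(CPM + 1) over the 10 libraries had a median of 0.73 (0.28 to 0.95), and of deviations from group means a median of 0.63 (-0.14 to 0.96). Between a myelin gene and a transcription factor the median was 0.45 over the libraries and 0.01 within groups. Among the factors *olig2* and *sox10* had r = 0.68, *olig1* and *olig2* 0.16, and *olig1* and *sox10* -0.09. Both genes of a pair come from the same 10 libraries, with the same groups and depths, so these are descriptions with no test.

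*plp1b* followed the others most closely, with r = 0.97 to the mean of the other myelin genes, rank 1 of 13218 genes with a mean of at least 5 CPM. *mpz* had rank 20, *cldnk* 91, *mag* 224, *mbpa* 395, *mbpb* 605 and *plp1a* 744. The factors ranked lower, *olig1* at 843, *olig2* at 1836 and *sox10* at 2348.

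Outside the 10 genes, the 10 most like the mean of the myelin genes over the 10 libraries had r from 0.93 to 0.95. They included *CLDN19*, a claudin (r = 0.94), *SLC7A10*, an amino acid transporter (0.95), *LAMB1*, a laminin chain (0.95), and *DHCR7*, the enzyme of the last step of cholesterol synthesis (0.95). The others were *lgi1b*, *ACSF2*, *ITPRID2*, *mfge8a*, *cd59a* and *AKT2*. Their fitted log2 fold changes ranged from -1.47 (*ACSF2*) to -0.31 (*mfge8a*) with MPH and from -1.64 (*ACSF2*) to -0.52 (*mfge8a*) with valproate, and none passed the test. These 10 genes were picked for likeness over the same libraries, so levels below vehicle with both drugs follow from the choice. By Spearman's rank correlation 5 of these 10 were again among the 10 most alike.

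Gene by gene, the most alike gene outside the 10 was *ELOVL1* (ENSDARG00000103735), which lengthens the fatty acids of sphingolipids, for *mpz* (r = 0.98). It was *SLC7A10* for *plp1b* (0.97) and *SOX9* (ENSDARG00000003293), a glial transcription factor, for *sox10* (0.97). For the rest it was *cbr1l* for *mbpa* (0.93), *tns3.2* for *mbpb* (0.94), *rgs3a* for *plp1a* (0.97), *ITPRID2* for *cldnk* (0.94), *CSRNP2* for *mag* (0.96), *ptprb* for *olig1* (0.97) and *MKX* for *olig2* (0.95).

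Genes for myelin lipids and other myelin proteins were read from lists, and no gene of the 4 lists below passed the test in any comparison. The lipid genes had the lowest medians of the 4 lists with both drugs. Of 12 tested, 11 were below vehicle with MPH (median -0.45) and 10 with valproate (median -0.49), and the median for the genotypes was 0.06. *FA2H*, which hydroxylates the fatty acids of myelin galactolipids, was at 75.1 and 38.9 CPM in WT, 67.8 and 49.6 in mutant vehicle, 37.3, 26.3 and 27.5 with MPH and 31.0, 27.3 and 32.8 with valproate. All its drug libraries were below all libraries without a drug. Its log2 fold change was -0.95 with MPH (SE 0.22, adjusted p = 0.172) and -0.96 with valproate (SE 0.17, adjusted p = 0.0766). *ELOVL1* (ENSDARG00000099960) was at -0.80 and -1.01 with overlapping groups. The other gene with this symbol (ENSDARG00000103735) had means of 79.9 CPM in WT, 101 in mutant vehicle, 65.0 with MPH and 59.0 with valproate. For it too every drug library was below every library without a drug, an order found for 3.66% of all genes. *ASPA*, which frees acetate for lipid synthesis, was above 0 with both drugs, at 0.49 and 0.41, with overlapping groups.

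Other myelin proteins were more mixed. Of 19 tested, 13 were below vehicle with MPH (median -0.15) and 12 with valproate (median -0.36). Of the 25 names in this list, *mobp*, *mog*, *mal*, *cd59*, *ermn* and *padi2* matched no gene, and some symbols were shared by paralogues. *cd59a*, named above, is therefore not counted here. *TPPP* (ENSDARG00000105029), a tubulin-binding protein of oligodendrocytes, was at -0.94 with MPH, and *CLDN19* at -0.67 with valproate (SE 0.15, adjusted p = 0.111). *CLDN11* (ENSDARG00000020031), a claudin of myelin, went the other way with MPH, at 0.68 (SE 0.22), and was at -0.66 in mutant against WT. In that comparison *PMP22* (ENSDARG00000060457), a protein of peripheral myelin, was at 0.74 and *cnp*, an enzyme of myelin's cytoplasmic channels, at 0.42. The other gene with the symbol *CLDN11* (ENSDARG00000030723) had means of 3.33 CPM in WT, 4.71 in mutant vehicle and 4.52 with MPH.

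Regulators of the lineage had medians near 0 with MPH (-0.06, 10 of 18 below) and of -0.23 with valproate (11 of 18 below). *MYRF*, the factor that turns on myelin genes, was at -0.73 with MPH (SE 0.26, adjusted p = 0.338), with libraries of 27.2, 31.7 and 16.8 CPM against 39.5 and 44.2 in vehicle. With valproate its libraries of 28.9, 28.5 and 39.6 CPM overlapped vehicle. *ascl1a* had a mean of 11.1 CPM in vehicle, 6.72 with MPH and 6.82 with valproate. *SOX9* (ENSDARG00000043923) had means of 56.3, 36.7 and 35.4 CPM in the same order. The other gene with the symbol *SOX9* (ENSDARG00000003293) had means of 62.1, 52.5 and 53.4 CPM, and its MPH libraries spanned vehicle. *id2b* and *ID4*, which hold back differentiation in mammals, were above 0 with MPH (0.42 and 0.49) and with valproate (0.43 and 0.31). *SOX8* (ENSDARG00000037782), a relative of *sox10*, was at 0.99 in mutant against WT (SE 0.27, adjusted p = 0.290 by edgeR). Its means were 3.74 CPM in WT and 7.43 in mutant vehicle. The other gene with this symbol (ENSDARG00000105301) had means of 3.48 and 3.36 CPM.

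Genes of oligodendrocyte precursors had a median of -0.37 with MPH (9 of 11 below) and -0.15 with valproate (6 of 10 below). *PDGFRA*, their growth factor receptor, was at -0.73 and -0.69 with overlapping groups. *PTPRZ1* (ENSDARG00000051814), a receptor phosphatase, was at -0.40 with MPH, -0.53 with valproate and 0.50 in mutant against WT. The other gene with this symbol (ENSDARG00000020871) had means of 157 CPM in WT, 159 in mutant vehicle, 146 with MPH and 148 with valproate. *LHFPL3* was above vehicle with both drugs, at 0.26 and 0.21.

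**Figure D5:**
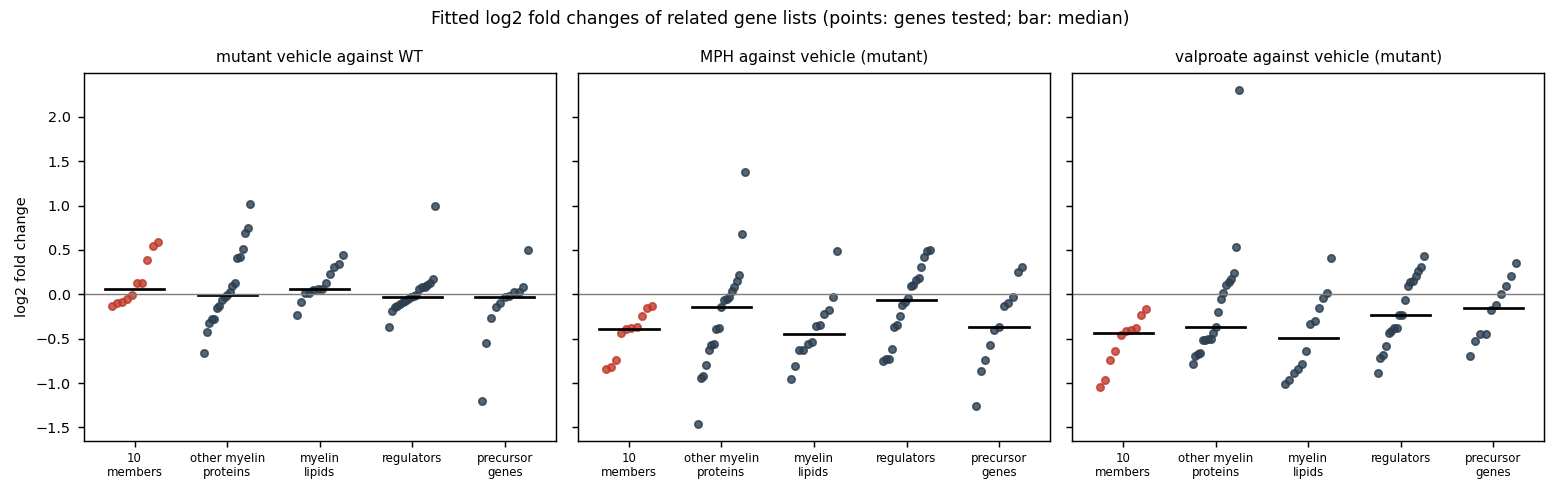
Fitted log2 fold changes (vertical axis) of the 10 genes (red) and of the genes tested in 4 related lists (dark), in 3 comparisons. Points are genes and bars the medians, which are -0.38 for the 10 genes and -0.45 for the myelin lipid list with MPH, and -0.43 and -0.49 with valproate. No gene shown passed the adjusted threshold.

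Markers of other cells moved with some of the same groups. Of 4 blood genes tested, *hbaa1*, *SLC4A1* (ENSDARG00000012881) and *alas2* fell with valproate, at -2.02, -1.87 and -1.65 (adjusted p = 0.0148, 0.0213 and 0.0173 by edgeR). The summed level of the 5 blood genes was 330 and 340 CPM in mutant vehicle, 72.6 to 99.0 with valproate, 98.0, 73.8 and 327 with MPH and 132 and 322 in WT. MPH replicate 3, with blood genes near the vehicle level, had the lowest *mbpa*, *plp1b*, *cldnk* and *mag* of its group and the highest *mpz* and *plp1a*. Of 14 radial glia and astroglia genes, 12 were below vehicle with valproate (median -0.33), *FABP7* (ENSDARG00000034650) fell with valproate, at -1.60 on the log2 scale (adjusted p = 0.0435), and the summed level was 10253 to 11821 CPM in vehicle and 7554 to 11203 with valproate. The same list summed to 8989 and 9561 CPM in WT, below both mutant vehicle libraries, with 9 of 14 genes above 0 in mutant against WT (median 0.11) and none called. In the MPH comparison 8 of 15 were below 0 (median -0.17).

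The Schwann cell list (11 genes, 1 at 0 in every library) summed to 135 to 150 CPM in vehicle, 108 to 123 with MPH, 116 to 133 with valproate and 141 and 154 in WT. Every drug library was thus below every library without a drug for this sum. The neuron list summed to 8547 to 8811 CPM in vehicle, 7490 to 8848 with MPH, 8358 to 8927 with valproate and 7881 to 8542 in WT. Muscle genes summed to 9.47 to 14.9 CPM in vehicle, 26.9 to 37.0 with MPH, 12.5 to 31.2 with valproate and 10.5 and 33.8 in WT, and microglia genes to 772 to 1011, 661 to 1028, 571 to 811 and 807 to 940. Pituitary genes summed to 65.7 CPM in MPH replicate 2 and 64.5 in valproate replicate 1 and to at most 8.08 elsewhere, and retina genes to 61.3 in WT replicate 2 and 107 in valproate replicate 2 and to at most 11.1 elsewhere. In valproate replicate 2, which had these retina counts, all 7 myelin genes were the lowest of the group. In WT replicate 2, which had them too, *mpz* and *mag* were above WT replicate 1 and the other myelin genes below it. The part of other cells and of dissection in the myelin levels was not tested.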

How the data were processed

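RNA of 10 libraries of pooled zebrafish brains was compared in 4 groups taken from the sample labels. The authors filtered paired-end reads, trimmed them, and used STAR 2.6.1d for alignment to zv10 and for counting (GeneCounts). The deposited table holds raw counts of 32266 genes, and 27111 of these had 1 count or more. The library kit is not known to mark strand, and which strand column was kept is not given in the sources used here, so reads of overlapping genes cannot be told apart. Symbols came from a table of gene IDs, which named 26433 genes. *plp1a* was matched by a RefSeq synonym. Sequences and coordinates are not used here.

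Depth was 19224942 to 25851076 counts (median 21647733.5). Fits were made per comparison, from its own groups, with edgeR 4.0.16 under R 4.3.3 (filterByExpr with smallest count 10 and smallest total 15, TMM, quasi-likelihood test), with p values adjusted by Benjamini-Hochberg over all genes tested and a threshold of 0.05. SEs were taken from the fold change and the test statistic, and intervals are 95%. CPM used TMM over all 10 libraries. Likeness was measured on log2(CPM + 1) for genes with a mean of at least 5 CPM. The test was checked on simulated counts with 200 genes changed 4-fold, and smaller changes were not simulated. It recovered 194 for the genotypes, 187 for MPH, 193 for valproate and 189 between the drugs. False calls numbered 29, 14, 15 and 12 in the same order.

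Members and lists were chosen with earlier results of these data known. Named genes are the 10 members, called genes of the further lists, the 2 highest and 2 lowest log2 fold changes per lineage list among genes with a mean of at least 5 CPM (of which examples are given), and the most alike genes. A gene of the myelin protein list that this rule names is not reported here. Alternatives were DESeq2 1.42.0 (Wald test, size factors), other filters, all 10 libraries in a single fit, the replicate number as a block, leaving out each library and, chosen after seeing the data, WT as the reference. Summaries used pandas 2.3.3 (Python 3.11.15), and matplotlib 3.10.9 drew the figures.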

Additional observations from a re-analysis of the deposited data

How the results depend on the processing

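All 10 genes stayed below vehicle with MPH and with valproate under DESeq2, its size factors, no filter, a single fit of all 10 libraries, a minimum of 10 counts in each library, the replicate block and without each library. Against WT in place of vehicle, *mbpb* turned to 0.19 with MPH. No member was called for the genotypes or between the drugs under any of these. With MPH, DESeq2's Wald test called 2 members and 496 of 16788 genes. With valproate it called 2 members and 1073 of 18988 genes. Without a filter 1 member was called with valproate (*plp1b*, adjusted p = 0.0487 by edgeR), beside 267 of 26079 genes. Without each library in turn between 0 and 3 members were called with valproate. The 3 were called without valproate replicate 1, where 712 of 19514 genes were called. Between the drugs *sox10* was at -0.0055 under DESeq2's Wald test and at -0.0082 under its size factors, against 0.00.

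Whether the replicate numbers pair the samples could not be decided. Deviations of same-numbered libraries correlated at 0.07 for the genotypes, 0.13 and 0.07 for MPH and 0.10 and -0.01 for valproate. In a group of 2 libraries the deviations mirror each other, so different-numbered values there differ only in sign. Between the drugs same-numbered libraries correlated at 0.26, -0.28 and 0.23, and different-numbered ones at -0.47 to 0.34. With the number as a block, 120 of 19695 genes were called for the genotypes and 2 of 19387 between the drugs. For MPH 2689 of 19907 genes were called, with 3 members among them (*mpz*, *plp1b* and *plp1a*). For valproate 135 of 19850 genes were called, with 2 members among them (*plp1b* and *mpz*). Vehicle had no replicate 3, so replicate 3 of each drug added nothing to the drug effect in the block fits against vehicle.

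Over all genes, 38, 43, 26 and 0 were called for the genotypes, MPH, valproate and between the drugs. DESeq2's Wald test called 279, 496, 1073 and 41, and no filter gave 272, 219, 267 and 1. All 10 libraries in a single fit gave 4 for the genotypes and 143 for MPH, and 10 counts in every library gave 78 for valproate. Leaving out each library gave 31 to 494 for the genotypes (494 without WT replicate 1, 483 without WT replicate 2). It gave 1 to 731 for MPH (731 without MPH replicate 3, 17 and 7 without its replicates 1 and 2, 12 and 1 without vehicle replicates 1 and 2). It gave 0 to 712 for valproate (712 without valproate replicate 1, 67 without replicate 3, and 0 without replicate 2 or without either vehicle replicate) and 0 to 1 between the drugs. The cause was not tested.

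Without each library in turn, log2 fold changes for the genotypes ranged from -0.52 to 0.39 for *mbpa*, -0.27 to 0.11 for *plp1a*, -0.14 to 0.35 for *cldnk*, -0.24 to 0.035 for *olig1*, -0.13 to 0.029 for *olig2* and -0.057 to 0.036 for *sox10*. For *mbpb* the range was 0.35 to 0.80, for *plp1b* 0.28 to 0.77, for *mpz* 0.14 to 0.61 and for *mag* 0.045 to 0.21. Between the drugs they ranged from -0.38 to 0.034 for *mbpa*, -0.31 to 0.029 for *mpz*, -0.078 to 0.10 for *mag* and -0.13 to 0.15 for *sox10*. With 2 or 3 libraries a group, and with vehicle shared by both drug comparisons, the spread between pools limits these values.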
